A study of Homo sapiens with 6 samples.

Results

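The kynurenine pathway was examined gene by gene in RNA-seq counts of cells labelled HepG2, a human liver cancer line, with and without cationic liposomes (CLs). The members are the 10 genes KYNU, KMO, IDO1, TDO2, AFMID, HAAO, QPRT, ACMSD, CCBL1 and CCBL2, taken as the rows of the count table with those gene symbols, out of 40205 rows in all. KYNU was chosen on its read counts in this same comparison of CLs-treated and control cells, so its difference is described here and not tested. The other 9 members were taken for their place in the pathway. The control group had 3 samples (Control-1 to Control-3) of cells that were seeded and cultured in the same medium. The CLs-treated group had 3 samples (CLs-1 to CLs-3) that were exposed for 24 h to liposomes of the cationic lipid DOTAP, cholesterol and a PEG-lipid. The labels give the dose as 120 μM, and the study's text uses both μM and μg/ml for that figure. The study's text calls the samples independent, but no source used here says that those of a group came from separate cultures, so the p-values measure only the spread between these samples. The counts summed to 11418527 in the shallowest sample and 13998946 in the deepest.

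Most dietary tryptophan that is not built into protein is broken down through kynurenine, and the liver is the main site of that breakdown. The oxygenases IDO1 and TDO2 open the indole ring, and the formamidase AFMID then releases kynurenine. From there the aminotransferases CCBL1 and CCBL2 (now named KYAT1 and KYAT3) can make kynurenic acid, or the monooxygenase KMO can make 3-hydroxykynurenine. KYNU is kynureninase, a pyridoxal phosphate enzyme that cleaves kynurenine to anthranilic acid and 3-hydroxykynurenine to 3-hydroxyanthranilic acid. HAAO oxidizes the latter product, and QPRT turns the resulting quinolinic acid into a precursor of NAD. ACMSD diverts the intermediate before quinolinic acid towards complete oxidation.

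The libraries were also checked against marker genes, in lists chosen with earlier results of these data known. Of 16 genes typical of hepatocytes and of HepG2, 12 had at most 3 reads in every control sample, and none had enough reads for testing. ALB, the gene of albumin, had 0 reads in all samples except CLs-1, which had 8, and AFP had at most 1 read in any sample. APOH and TTR had 0 reads throughout. These counts go against the liver origin that the label HepG2 gives, so the low values of liver enzymes below cannot be taken as levels in hepatocyte-like cells. The summed reads of the 16 genes were 7 to 23 in each sample except CLs-1, where they were 164. CLs-1 also stood apart in genes of other tissues. Its summed reads over 4 red blood cell genes were 477, against 0 to 4 in each of the others, and over 6 steroidogenic genes 482, against 11 to 32. These lists hold HBA1, HBA2, HBB, STAR and HSD3B2, which the study had already reported as differing between the groups. They are therefore not an independent check. Among 8 macrophage and leukocyte genes, PTPRC, LYZ, AIF1, CD163 and TYROBP had at most 3 reads in every sample, and CD14 had 3 to 9. CD68, a lysosomal protein, had 149 to 291 reads, and CSF1R, the receptor of a macrophage growth factor, had 8, 12 and 10 reads in the controls and 27, 38 and 5 after CLs. Of 6 fibroblast and matrix genes, COL1A2 had 1044 reads in CLs-1 and at most 2 elsewhere. DCN, LUM and THY1 had 19, 7 and 58 reads in CLs-1 and at most 5 elsewhere. COL3A1, by contrast, had 7456 to 11358 reads and COL1A1 764 to 2472 across the samples. Values without CLs-1 are therefore also given below for some of the genes that rest on it, though not for all. The part of these markers in the results was not tested.

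The pathway was represented by a subset of its enzymes. Of the 10 members, 5 passed the filter on low counts (KYNU, AFMID, CCBL1, CCBL2 and QPRT), and the other 5 (IDO1, TDO2, KMO, HAAO and ACMSD) were too low to be tested. Reads on the 10 members summed to 2180, 2358 and 2419 in the controls and to 3540, 3643 and 4230 after CLs. KYNU alone took a share of 59.9% ± 5.68 in the controls and of 72.7% ± 2.47 after CLs (means ± SD of 3 samples). Because KYNU was chosen on its difference, the higher sums and share after CLs follow at least in part from that choice. They are no result about the pathway as a whole. The sums are raw reads that were not scaled to depth, and CLs-1 was the deepest sample.

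**Figure D1:**
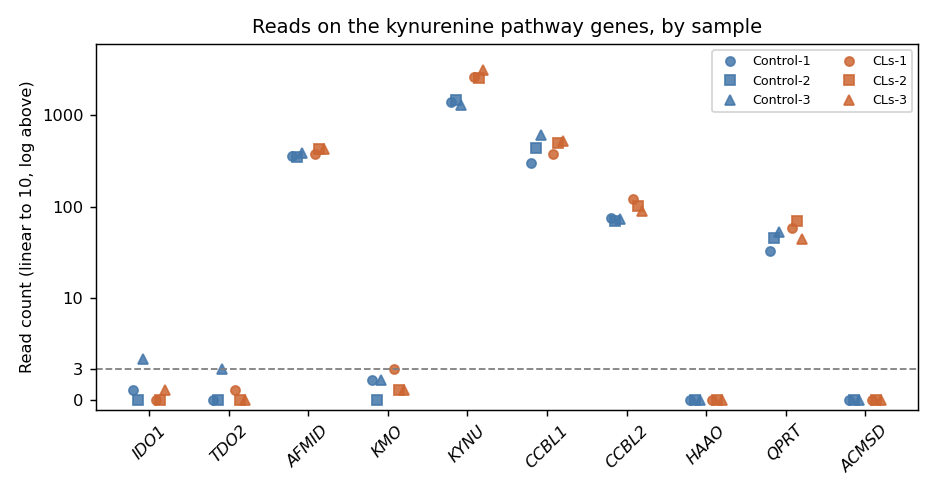
Read counts of the 10 members (x axis) in each of the 6 samples, with the y axis linear up to 10 and logarithmic above. Blue points are control samples and orange points CLs-treated samples, and the dashed line marks 3 reads. KYNU, AFMID, CCBL1, CCBL2 and QPRT lie well above the line, while the other members lie at or near 0.

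The oxygenases of the first step were barely read. IDO1 had 1, 0 and 4 reads in the control samples and 0, 0 and 1 in the CLs-treated samples. TDO2, the oxygenase of hepatocytes, had 0, 0 and 3 reads in the controls and 1, 0 and 0 after CLs. IDO2, a relative of IDO1, had 0 reads in all 6 samples. Both oxygenase members thus lay at about the level of 3 reads, which at these depths is 0.214 to 0.263 per 1000000 counted reads before TMM scaling, and no fold change is given for them.

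KMO was at the same low level. It had 2, 0 and 2 reads in the control samples and 3, 1 and 1 in the CLs-treated samples. In the GENCODE annotation 1691 of its 5946 exon bases lie opposite exons of OPN3, which had between 853 and 1361 reads, so even these few reads cannot be assigned to KMO with confidence where strand was not used. HAAO and ACMSD had 0 reads in every sample, which allows up to 0.263 per 1000000 counted reads in the shallowest. No difference in KMO, HAAO or ACMSD was detectable at this depth.

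KYNU was the most read member and had the widest gap between the groups. Controls 1 to 3 held 1411, 1449 and 1298 reads of it, which corresponds to 122.5, 125.1 and 111.3 CPM (counts per 1000000 of the TMM-scaled library total). CLs-treated samples 1 to 3 held 2600, 2546 and 3157 reads, or 180.0, 220.1 and 276.6 CPM. All CLs-treated samples were thus above all controls, with the lowest in CLs-1 and a wider spread than in the control group. Mean levels were 119.7 ± 7.34 CPM without and 225.6 ± 48.5 CPM with CLs (SD, n = 3 for both). The edgeR fit put the log2 fold change at 0.91 (SE, standard error, 0.16), a 1.88-fold higher level in CLs-treated cells. It was 1.05 without CLs-1 and 0.74 without CLs-3, the highest sample. KYNU ranked 88 from the top among the 15047 genes tested when these were ordered by log2 fold change. These values selected the gene and are given as a description. In bulk RNA a change in the number of cells of a type and a change in RNA per cell cannot be told apart. The summed CPM of the 8 macrophage and leukocyte genes also lay apart between the groups, at 14.3 to 18.3 in the controls and 20.7 to 24.0 after CLs. Of single genes tested, 5.34% lay apart in this direction. CD68, which made up most of the sum, overlapped on its own (12.9 to 17.2 CPM in controls and 16.9 to 23.2 CPM after CLs). CSF1R added 3.28 CPM in CLs-2 but 0.438 CPM in CLs-3. PTPRC, LYZ, AIF1, CD163 and TYROBP, with at most 3 reads in every sample, added almost nothing. The part of these genes in the KYNU difference was not tested.

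Reads of KYNU could in principle be shared with its pseudogenes. KYNUP1 had 2 reads in Control-2 and 0 elsewhere, KYNUP2 had 0 throughout, and KYNUP3 had 1 read in each of CLs-1 and CLs-2. The pseudogene rows thus held almost nothing beside the KYNU row. How reads with several matches were handled is not given, so these rows cannot show whether reads were shared.

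**Figure D2:**
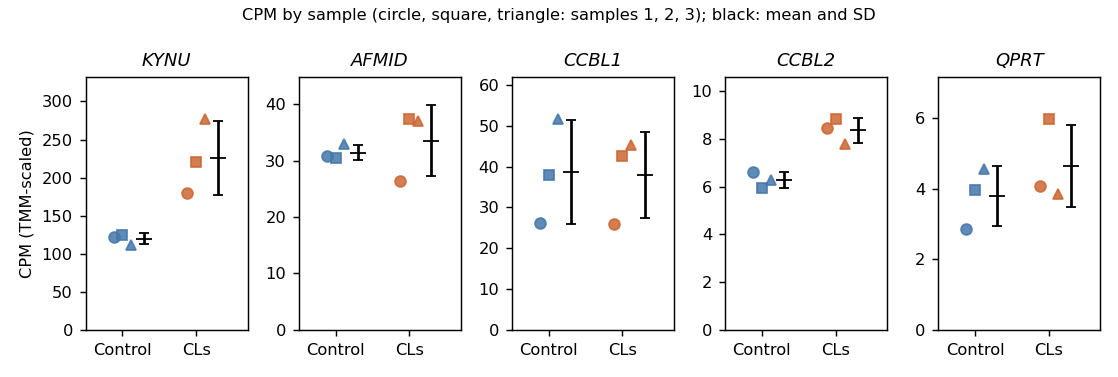
CPM after TMM scaling (y axis, from 0, with its own scale in each panel) of the 5 members above the filter on low counts, in control (blue) and CLs-treated (orange) samples. Circles, squares and triangles are the samples numbered 1, 2 and 3, and black bars give the mean and SD. The groups do not overlap in KYNU, which was chosen on this difference, and in CCBL2. Of all genes tested, 5.34% lie apart in this direction. The groups overlap in AFMID, CCBL1 and QPRT.

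In KYNU, which was chosen on its difference, and in CCBL2, all CLs-treated samples were above all controls. This was so in 5.34% of all genes tested. The 250 bases before the annotated starts of KYNU and CCBL2 are shown. Both are from RefSeq on GRCh38.p14, in which 8 of the 10 members have such an entry, and are written 5′ to 3′ on the strand of the gene. The KYNU window is chr2:142877414-142877663 on the plus strand. The CCBL2 window is chr1:88992630-88992879 on the minus strand. Capitals mark matches to the motifs searched on both strands. These were TATAAA (the TATA box), TTCNNNGAA (the interferon gamma activated site) and TGACNNNGC (the core of the antioxidant response element). The others were GCGTG, the core of the xenobiotic response element, and a core of the interferon stimulated response element.
KYNU: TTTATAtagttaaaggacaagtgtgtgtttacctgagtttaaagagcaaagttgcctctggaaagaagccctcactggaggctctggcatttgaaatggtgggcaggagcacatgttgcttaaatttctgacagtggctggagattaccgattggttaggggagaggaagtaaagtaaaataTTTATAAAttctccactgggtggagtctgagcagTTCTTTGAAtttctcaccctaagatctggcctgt
CCBL2: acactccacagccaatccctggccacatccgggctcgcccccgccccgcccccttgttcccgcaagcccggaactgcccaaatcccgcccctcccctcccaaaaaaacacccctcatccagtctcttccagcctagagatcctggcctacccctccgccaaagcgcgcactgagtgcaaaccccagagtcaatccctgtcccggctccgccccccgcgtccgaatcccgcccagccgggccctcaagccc

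The windows differ in composition. The KYNU window has 42.4% G and C and the CCBL2 window 67.6%, against a median of 58% over all 35116 windows of this length. In KYNU, TATAAA lies 66 to 61 bases before the start on the strand of the gene, overlapped by a match on the opposite strand at 68 to 63, and a further match on the opposite strand lies at 250 to 245. A TTCNNNGAA match, which reads the same on both strands, lies 34 to 26 bases before the start. TATAAA occurs in 10.7% and TTCNNNGAA in 6.57% of all windows. TGACNNNGC, GCGTG and the interferon stimulated response element core, which occur in 10.9%, 32.2% and 3.02% of all windows, were not in the KYNU window, and none of the 5 motifs was in the CCBL2 window. These matches describe the letters only, and which start the cells used was not measured.

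Neither aminotransferase member passed the test. CCBL2 had 76, 69 and 73 reads in the control samples and 122, 102 and 89 in the CLs-treated samples, or 6.60, 5.96 and 6.26 CPM against 8.45, 8.82 and 7.80 CPM. All CLs-treated samples were above all controls, a separation in this direction that was seen in 5.34% of the genes tested. Averaged over 3 samples, CCBL2 stood at 6.27 ± 0.321 CPM in controls and 8.35 ± 0.516 CPM after CLs (SD). This was a log2 fold change of 0.41 (SE 0.20), with an adjusted p = 0.869 over all genes tested (edgeR, quasi-likelihood, Benjamini-Hochberg). Without CLs-1 the log2 fold change was 0.40. CCBL2 shares 469 of its 2306 exon bases with RBMXL1 on the same strand, which had 371 to 663 reads. The counting mode is not given, so how reads on the shared bases were assigned is unknown.

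CCBL1 varied far more within the groups than between them, with 38.7 ± 12.7 CPM in controls and 37.9 ± 10.5 CPM after CLs (mean ± SD). Its CPM was 26.3, 38.1 and 51.6 in controls 1 to 3 and 25.9, 42.6 and 45.2 in CLs-treated samples 1 to 3. The sample numbered 1 was the lowest in both groups and the sample numbered 3 the highest. The log2 fold change of CCBL1 was -0.03 (SE 0.26, adjusted p = 0.999 by the same edgeR test), and its sign changed when Control-3 or CLs-1 was left out, with values of 0.23 and 0.18.

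AFMID and QPRT, which act near the start and the end of the pathway, also overlapped between the groups. AFMID was measured at 30.7, 30.5 and 32.9 CPM in the controls and at 26.4, 37.3 and 37.0 CPM in the CLs-treated samples, with CLs-1 the lowest of all. Its log2 fold change was 0.09 (SE 0.17, adjusted p = 0.998 by edgeR), and it was 0.24 without CLs-1, 0.011 without CLs-2 and 0.020 without CLs-3. QPRT was read at a low level, with 33, 46 and 53 reads in the control samples and 59, 69 and 44 in the CLs-treated samples. The log2 fold change of QPRT was 0.28 (SE 0.28, adjusted p = 0.998 by edgeR), and it was 0.066 without CLs-2.

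By the edgeR test, 0 of the 4 tested members other than KYNU met the criteria, which were an adjusted p under 0.05 together with a fold of more than 1.5 or less than 0.67. Over all 15047 genes 13 met them, or 0.0864%. At an unadjusted p under 0.05 the count was 0 of the 4 members as well, against 5.81% of all genes, and with DESeq2's Wald test it was again 0 at the same criteria, against 0.711% of all genes. Of the 4 members, 3 had a log2 fold change above 0, and their median was 0.19 against 0.01 for all genes tested. The SE of their log2 fold changes ran from 0.17 to 0.28.

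Levels of different members can be compared only per length, and their order depended on which length was used. Per kilobase of the longest coding sequence, the control group had 85.8 ± 5.26 CPM for KYNU, 34.0 ± 1.46 for AFMID, 25.0 ± 8.18 for CCBL1, 4.61 ± 0.236 for CCBL2 and 4.26 ± 0.958 for QPRT (SD, n = 3). On this scale KYNU was the highest, AFMID and CCBL1 differed by about their spread, and CCBL2 and QPRT could not be told apart. Per kilobase of all annotated exons, KYNU, with 17600 annotated exon bases against 1395 coding bases, had 6.80 ± 0.417 CPM in the control group, CCBL1 had 10.7 ± 3.50 and AFMID had 7.75 ± 0.332. In the CLs-treated group the same exon-based levels were 12.8 ± 2.76 for KYNU, 10.5 ± 2.89 for CCBL1 and 8.29 ± 1.54 for AFMID. KYNU was therefore first among the members on coding length in both groups, but not on exon length in the control group.

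The neighbouring routes of tryptophan and NAD metabolism were covered by a list of 34 genes, of which 22 were tested. By edgeR 0 of the 22 met the criteria, against 0.0864% of all genes tested, and DESeq2 called 0, against 0.711%. An unadjusted p under 0.05 was seen in 1 of the 22, against 5.81% of all genes. The log2 fold changes had a median of 0.02 and ran from -0.64 to 0.39, with 12 above 0 and 10 below. In 2 of the 22, NAMPT and WARS2, all CLs-treated samples were above all controls, against 5.34% of all genes tested, and in 0 all were below, against 6.18%. With so few genes, neither count is read as a difference from all genes.

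Transporters for uptake took more reads than any other role in this list. SLC7A5, the light chain of the large neutral amino acid transporter that carries tryptophan and kynurenine, had 1165 to 1400 CPM in the control samples and 1042 to 1414 in the CLs-treated samples. Its log2 fold change was -0.07 (SE 0.16, adjusted p = 0.998 by edgeR). SLC3A2, the heavy chain of the same transporter, had 667.6 ± 143.4 and 860.9 ± 163.8 CPM (SD, n = 3 in each group), and its groups overlapped. The log2 fold change of SLC3A2 was 0.37 (SE 0.19, adjusted p = 0.903 by edgeR). WARS, which charges tRNA with tryptophan, had 260.0 ± 57.7 and 295.0 ± 74.2 CPM (SD, n = 3 in each group), and its groups overlapped. The log2 fold change of WARS was 0.18, but 0.040 without CLs-1 and 0.010 without Control-3. The transporters SLC6A14 and SLC6A19 had 0 reads in every sample.

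Genes that act on kynurenine or its products by other enzymes also overlapped between the groups. GOT2, a mitochondrial aminotransferase that can use kynurenine, had 305.4 ± 7.69 and 288.4 ± 12.5 CPM (SD, n = 3 per group) and a log2 fold change of -0.08. AADAT, another aminotransferase, went the other way, with 13.7 ± 1.56 and 17.1 ± 1.97 CPM. Its log2 fold change was 0.31 (SE 0.18, adjusted p = 0.926 by edgeR), and 0.24 to 0.40 with single samples left out. DHTKD1, a subunit of the 2-oxoadipate dehydrogenase complex on the route from tryptophan to complete oxidation, had a log2 fold change of -0.14 (SE 0.18). PDXK, the kinase that makes the pyridoxal phosphate needed by kynureninase and the aminotransferases, had 365.0 ± 39.6 and 310.0 ± 43.4 CPM, a log2 fold change of -0.24 (SE 0.15, adjusted p = 0.950 by edgeR). None of these genes passed the test.

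NAD synthesis can start from quinolinic acid or from nicotinamide. NNMT, which methylates nicotinamide and was the most read gene of this group, had 139.4 ± 10.8 and 140.3 ± 5.43 CPM (SD, n = 3 in each group) and a log2 fold change of 0.01. NAMPT, the rate-limiting enzyme of salvage from nicotinamide, was the gene with an unadjusted p under 0.05, and it is named because of that value. It had 31.1, 25.8 and 27.4 CPM in the controls and 43.1, 33.4 and 33.9 CPM in the CLs-treated samples, with CLs-1 the highest. Its log2 fold change was 0.39 (SE 0.16, adjusted p = 0.764 by edgeR), and it therefore did not pass. Without CLs-1 the log2 fold change of NAMPT was 0.26. WARS2, which like WARS belongs to tryptophan tRNA charging and not to NAD synthesis, was separated only narrowly. It had 17.3 ± 0.500 and 18.7 ± 0.357 CPM (SD, n = 3 in each group). None of the 8 genes of the serotonin and tryptamine route had enough reads to be tested, and TPH1, TPH2 and ASMT had at most 3 reads in any sample.

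**Figure D3:**
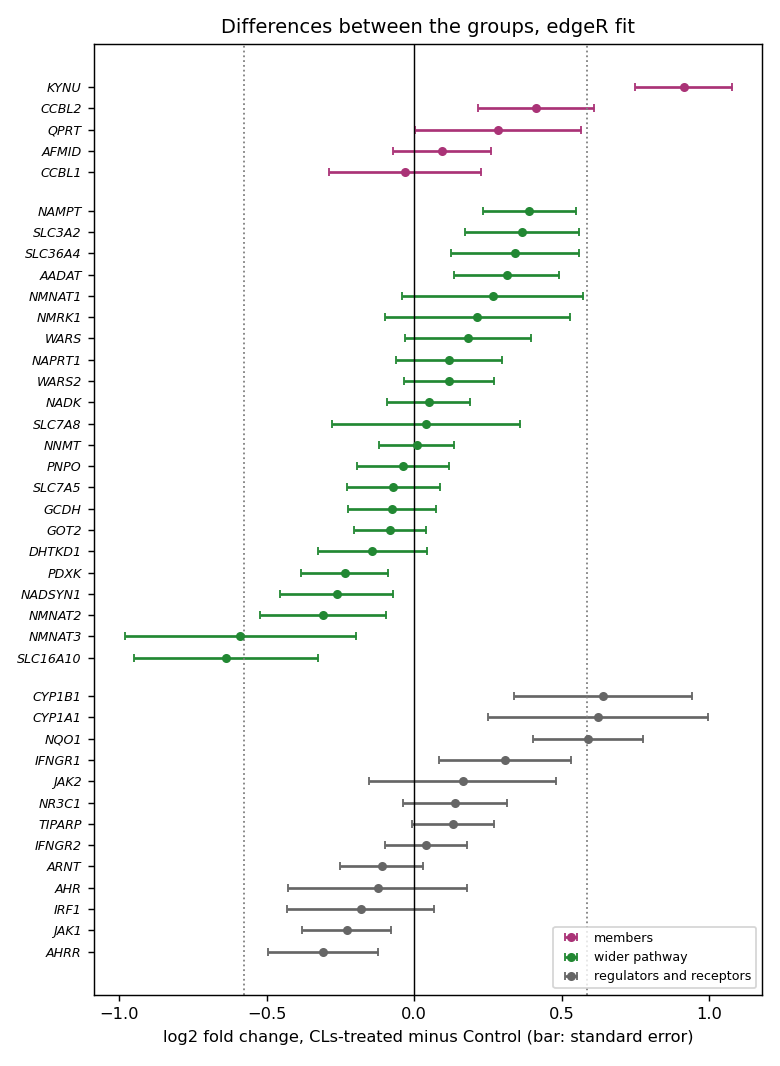
Log2 fold changes (x axis, CLs-treated minus control) from the edgeR fit for the tested members (purple), the wider pathway genes (green) and 13 of the 14 tested regulators and receptors (grey). Bars are standard errors over 3 samples in each group, and dotted lines mark folds of 1.5 and 0.67. KYNU, which was chosen on this difference, lies at 0.91, farther from 0 than any other gene shown. Of the others only CYP1B1, CYP1A1, NQO1, NMNAT3 and SLC16A10 lie beyond a dotted line.

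Genes known to act on the pathway or to respond to its products were counted in the same way. Interferon gamma is a known inducer of IDO1 and KYNU, glucocorticoids are known inducers of TDO2, kynurenine is a ligand of the aryl hydrocarbon receptor AHR, and kynurenic acid is a ligand of GPR35. Of 16 such genes 14 were tested, and 0 met the criteria by edgeR (0.0864% of all genes) or by DESeq2 (0.711% of all genes). An unadjusted p under 0.05 was seen in 1 of the 14, against 5.81% of all genes. Their median log2 fold change was 0.09.

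NQO1, a quinone reductase controlled by both AHR and the oxidative stress factor NRF2, was that 1 gene and the only one of the 14 with no overlap between the groups, a separation that 5.34% of all genes showed in this direction. It had 525.1, 601.3 and 565.8 CPM in controls 1 to 3 and 647.3, 805.2 and 1096 CPM in CLs-treated samples 1 to 3. As for KYNU, CLs-1 was the lowest and CLs-3 the highest of the CLs-treated samples. The log2 fold change of NQO1 was 0.59 (SE 0.19, adjusted p = 0.462 by edgeR), and 0.36 without CLs-3. It did not pass the criteria.

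The other genes of the AHR axis overlapped between the groups. CYP1A1 had 1.96 ± 0.225 and 3.05 ± 1.40 CPM (SD, n = 3 in each group), and CYP1A2 had 0 reads throughout. CYP1B1 had 8.86 CPM in CLs-1 and 4.41 and 4.91 CPM in the other CLs-treated samples, against 3.54 to 4.63 CPM in the controls. Its log2 fold change was 0.64, and the lowest value with a single sample left out was 0.25. AHRR, the repressor of AHR, had a log2 fold change of -0.31 (SE 0.19, adjusted p = 0.939 by edgeR).

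The interferon gamma axis showed no member past the test. JAK1, its most read gene, had 145.1 ± 18.6 and 123.8 ± 17.1 CPM (SD, n = 3 per group) and a log2 fold change of -0.23 (SE 0.15, adjusted p = 0.958 by edgeR). IRF1 had a log2 fold change of -0.18, which ran from -0.41 to 0.03 with single samples left out. The glucocorticoid receptor gene NR3C1 had 87.6 ± 11.9 and 96.3 ± 20.7 CPM, a log2 fold change of 0.14 whose sign changed without CLs-1, to -0.02. GPR35 had 1 to 9 reads per sample and was not tested.

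The genes with the pattern closest to KYNU were sought over the 6 samples. Likeness was the root mean square difference of log2(CPM + 1) after each gene's own mean was subtracted, over all 15046 other genes tested. The closest 5 were P4HA3, SLC25A20, AKR1E2, NQO1 and RPL17P6, at differences of 0.140, 0.146, 0.154, 0.186 and 0.199, against a median of 0.517 over all genes. Because KYNU separates the groups, its nearest genes do so by construction, and their group differences are no further evidence. P4HA3 had 4 reads in each control and 13 to 16 in the CLs-treated samples, so its place rests on few reads. Its log2 fold change was 1.79 against 0.91 for KYNU, and adding 1 to the CPM shrinks differences at such low levels. SLC25A20, the mitochondrial carnitine carrier, had 14.4 ± 1.51 and 24.5 ± 3.27 CPM, and AKR1E2, an aldo-keto reductase, had 1.52 ± 0.178 and 3.33 ± 0.809 CPM (SD, n = 3 in each group). RPL17P6 is a ribosomal protein pseudogene whose reads could have come from other copies, and it had 723 to 995 reads in the controls and 1229 to 1496 after CLs.

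Among the other members, CCBL2 was the nearest to KYNU by this measure and CCBL1 the farthest. Their ranks among the 15046 genes were 325 for CCBL2, 2003 for AFMID, 3787 for QPRT and 10402 for CCBL1. The pattern of KYNU holds the group difference it was chosen on. These ranks therefore partly repeat each member's own group difference and are no further evidence.

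**Figure D4:**
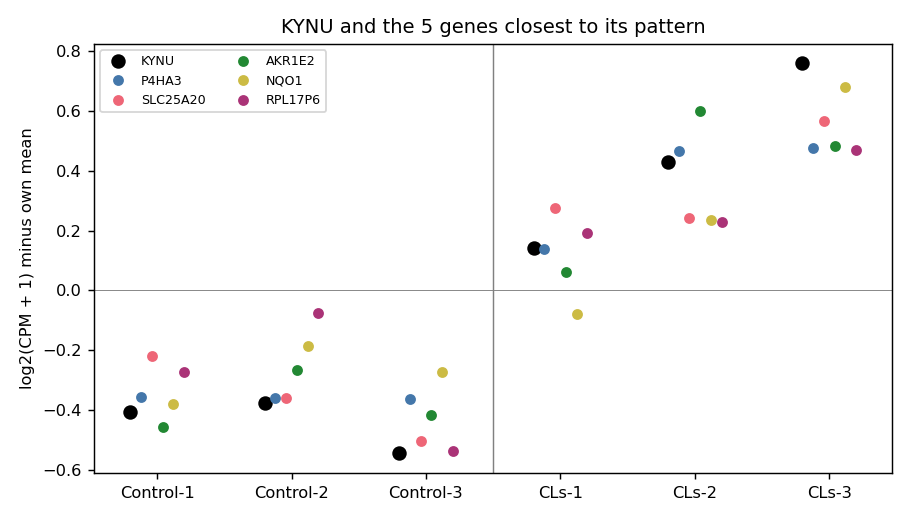
Log2(CPM + 1) minus the gene's own mean over the 6 samples (y axis) for KYNU (black) and the 5 genes closest to its pattern (coloured), by sample (x axis). All 6 genes lie below 0 in the 3 control samples and, with the exception of NQO1 in CLs-1, above 0 in the CLs-treated samples.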

How the data were processed

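Single-end RNA-seq was run on 3 control and 3 CLs-treated samples of cells labelled HepG2. MapSplice was the authors' aligner, and the deposited table holds whole-number read counts per gene symbol, without normalization. The submitters' processing notes name HTSeq 0.6.1 and hg19. The counting mode, the use of strand and the handling of reads with several matches are not given in the sources used here. The authors' RPKM values and EBSeq results were not used.

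The main model had condition as its sole term and was fitted with edgeR 4.0.16 (R 4.3.3) to the 15047 genes that filterByExpr kept. TMM scaling was applied, and genes were tested by quasi-likelihood, with Benjamini-Hochberg adjustment over all genes tested. Standard errors were derived from the F statistic. The study's criteria were used, an adjusted p under 0.05 with a fold of more than 1.5 or less than 0.67. EBSeq was not installed. The script was tested on simulated data. The smallest p of an exact two-sided permutation test on 3 samples against 3 is 0.1. Floors of 3 counts cover counting error only. Pairs of samples of a group differed by more than sampling noise, so all 6 were kept as separate samples.

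The members and gene lists were chosen with earlier results of these data known. Named were every member, the most read gene of each role in the other lists, the genes of these lists that were called or whose groups did not overlap at a fold above 1.5, genes with at most 3 reads in every sample, and the 5 genes closest to KYNU in pattern. The values of 1 regulator gene are not reported here, and it is included in the counts. A gene named outside this rule is a gene behind a small count, a marker or one whose values stand beside those of a named gene. Coding and exon lengths, and overlaps, are from GENCODE release 29 on GRCh38, another build than that of the counts. Alternatives were DESeq2 1.42.0, other scaling factors and filters, dropping the fold criterion, a replicate block, and fits that each omitted 1 sample. CPM are counts per 1000000 of the TMM-scaled library total.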

Additional observations from a re-analysis of the deposited data

How the results depend on the processing

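The log2 fold change of KYNU kept its direction and moved by less than the spread between replicates under all 13 alternatives, from 0.74 to 1.05. The counts of members other than KYNU, of wider pathway genes and of regulators that met the criteria stayed at 0 under every alternative. Log2 fold changes near 0 changed sign when 1 sample was left out: these ran from -0.25 to 0.23 for CCBL1, -0.20 to 0.028 for SLC7A5, -0.29 to 0.030 for DHTKD1, -0.053 to 0.051 for NNMT and -0.017 to 0.29 for NR3C1. Over all genes, 2 were called higher and 11 lower. With DESeq2 these counts were 16 and 91, with no filter on low counts 58 and 113, and under the replicate block 12 and 56. With library totals only, 6 were called lower. Leaving out 1 sample gave 1 to 3 higher and, whichever sample it was, only 2 to 6 lower. The causes were not tested.

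The labels link control and CLs-treated samples only by number, and no source used here says whether they were paired. Deviations from the group means correlated at 0.111, 0.099 and 0.305 between samples numbered 1, 2 and 3. Each sample correlated best with its own number, and the main model did not include the number. With the replicate block the log2 fold change of KYNU was 0.89, and 0 members other than KYNU were called. The SE of the log2 fold change of CCBL1 was 0.14 with the block, against 0.26 in the main model.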
